A study of Mus musculus with 7 samples.

Results

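The genes examined here are the 4 opioid receptor genes Oprm1, Oprd1, Oprk1 and Oprl1 and the 4 opioid peptide precursor genes Penk, Pdyn, Pnoc and Pomc of the mouse. They were matched by exact symbol to probe sets annotated with a single gene, and all 8 of 8 were found among 22180 named genes, each with 1 probe set. The arrays measured RNA pulled down with GFP-tagged ribosomes from the medial prefrontal cortex (mPFC), a frontal area involved in the control of reward seeking and of fear. In all mice the ribosome tag was switched on by a tamoxifen-dependent Cre transgene under the activity-regulated gene Arc, so the tagged cells are those in which Arc drove Cre while tamoxifen was present. The cocaine group (arrays 4, 5, 6 and 7) came from mice given 15 mg/kg cocaine on 2 days, and the shock group (arrays 4, 5 and 6) from mice given 20 shocks of 0.5 mA and 2 s on 2 days. The numbers are those of the sample titles. Not given in the sources used here are the strain background, sex and age, and how many mice stood behind an array. Nothing says that the arrays came from separate mice, so the p-values reflect variation from array to array, part of which may be technical. Untreated animals and RNA from before the pull-down were not analysed here.

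Opioid peptides are cut from large precursors and released by neurons alongside classical transmitters. Penk yields mainly enkephalins, which act on the delta receptor (Oprd1) and the mu receptor (Oprm1). Pdyn yields dynorphins, which prefer the kappa receptor (Oprk1). Pnoc yields nociceptin, the ligand of the nociceptin receptor (Oprl1), and Pomc yields beta-endorphin together with melanocortins and ACTH. All of these receptors couple to inhibitory G proteins, which lower cAMP, open inwardly rectifying potassium channels and close calcium channels. In cortex the enkephalin, dynorphin and nociceptin precursors are made in part by subsets of inhibitory neurons. In striatum, Penk marks projection neurons of the indirect pathway and Pdyn those of the direct pathway.

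No opioid gene separated the cells labelled during cocaine from those labelled during shock. The differences of 6 genes were smaller than their pooled SD between arrays of a group, those of Pnoc (-0.252, pooled SD 0.237) and Pomc (-0.113, pooled SD 0.091) were slightly larger, and Pnoc had the widest interval. By limma, 0 of the 8 genes passed an adjusted p under 0.05, as for all genes (0%), and 0 of the 8 had an unadjusted p under 0.05, against 3.1% of all genes. Without cocaine array 6, described below, 1 of the 8 (Pomc, under the background level) had an unadjusted p under 0.05, against 2.64% of all genes. The groups overlapped for all 8, while 2.37% of all genes had groups that did not. Of the 8, 4 had a higher and 4 a lower mean in the cocaine group, and the median of their log2 differences was -0.0023, against 0.0016 over all genes. For 7 of the 8, all but Pnoc, the 95% interval of the difference lay inside 1.5-fold in both directions. Of these, Pomc lay under the background level and Oprm1 close to it, so their intervals bound the array value and not the change in transcript. A p that misses the threshold does not show that levels were alike, so the intervals are given for each gene. Values are log2 expression values, a difference is cocaine minus shock, and its standard error and interval come from limma, fitted over all genes with Benjamini-Hochberg adjustment.

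**Figure D1:**
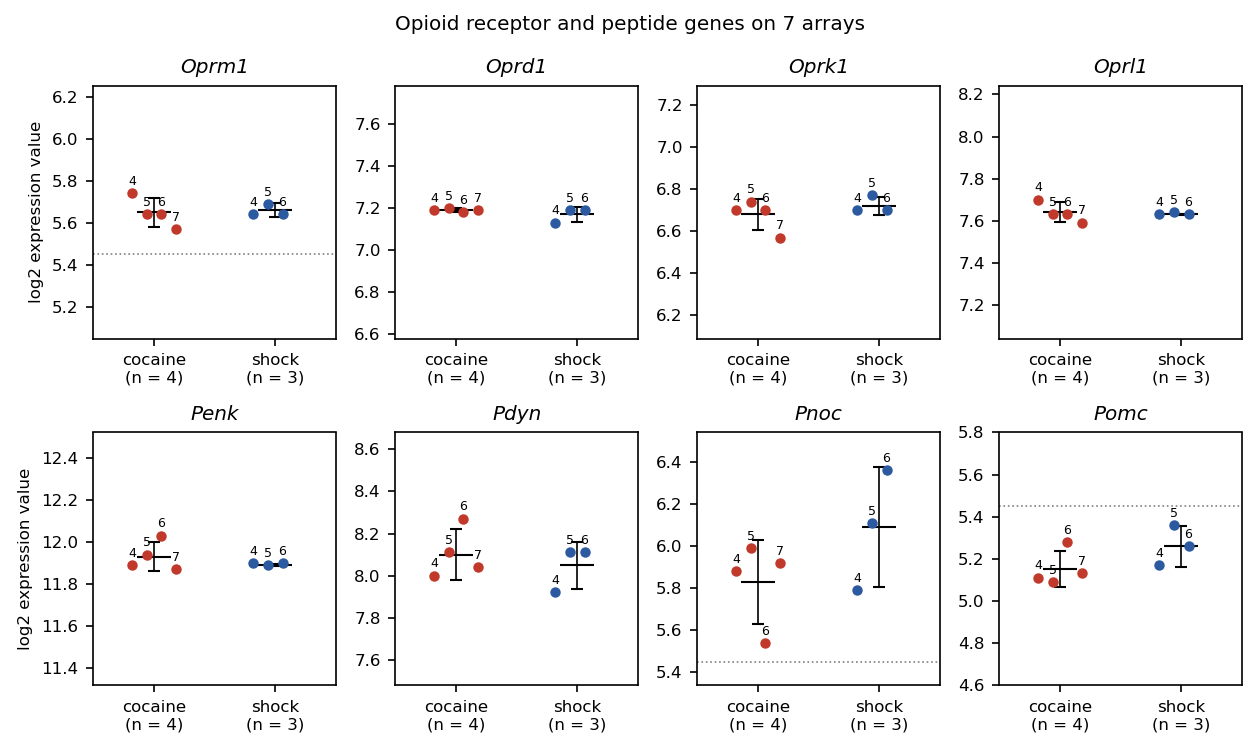
Deposited log2 expression value of each gene (y axis, each panel spanning the same height) on the 4 cocaine arrays and the 3 shock arrays, with the array number above each point, the group mean as a horizontal line and the SD as bars. The dotted line is the stand-in background level of 5.45, and the cocaine and shock points overlap in every panel, with the widest spread for Pnoc (5.54 to 6.36).

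There are no read counts behind array values, so precision depends on how many arrays there are and how far each gene's values spread between them. As a stand-in for background, the level under which 95% of olfactory, vomeronasal and trace amine receptor genes lay was 5.45. On average 7 of the 8 genes lay above it, and Pomc below it. Slc17a7, the vesicular glutamate transporter of cortical excitatory neurons, ran from 11.58 to 11.78 over the arrays. This gene alone cannot tell the mPFC from a sample that also holds neighbouring tissue. The striatal neuron marker Pde10a was above the background level too, from 9.22 to 9.64. Cocaine array 6 stood apart from the other arrays over all genes, with a mean Euclidean distance to them of 37.2 against 27.5 to 29.6 for the others. Gene differences and medians of the opioid signalling lists that it moved by over 1.5 times are therefore also given without it or as a range with single arrays left out. In a pull-down from many cells, fewer cells of a type and less RNA per cell cannot be told apart.

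Among the receptors, Oprm1, the mu receptor at which morphine acts, read 5.74, 5.64, 5.64 and 5.57 on cocaine arrays 4, 5, 6 and 7, and 5.64, 5.69 and 5.64 on shock arrays 4, 5 and 6. The shock values fell within the cocaine range, and all lay close to the background level of 5.45. The difference was -0.009 (SE 0.046, 95% interval -0.12 to 0.10), a cocaine to shock ratio of 0.99 (0.92 to 1.07). Its sign turned with quantile normalization (0.0066) and with median centring (0.0026).

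Oprd1, the delta receptor for enkephalins, read 7.19, 7.20, 7.18 and 7.19 on the cocaine arrays and 7.13, 7.19 and 7.19 on the shock arrays. Apart from the 7.13 of shock array 4, its values spanned 7.18 to 7.20 in both groups. The difference was 0.021 (SE 0.031, 95% interval -0.05 to 0.10) and was 0.0011 without shock array 4. Among the genes above the background level, only 5.17% had a smaller pooled SD within groups.

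Oprk1, the kappa receptor for dynorphins, read 6.70, 6.74, 6.70 and 6.57 on the cocaine arrays and 6.70, 6.77 and 6.70 on the shock arrays. The lowest value, on cocaine array 7, and the highest, on shock array 5, were 0.20 apart. The difference of -0.045 (SE 0.050, 95% interval -0.17 to 0.07) came to -0.0094 without cocaine array 7.

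Oprl1, the nociceptin receptor, read 7.70, 7.63, 7.63 and 7.59 on the cocaine arrays and 7.63, 7.64 and 7.63 on the shock arrays. The shock arrays lay between the lowest and the highest cocaine array. The difference was 0.004 (SE 0.036, 95% interval -0.08 to 0.09), and it turned to -0.017 without cocaine array 4.

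The steadiness of the receptors comes with a feature of the deposited values. Each of the 4 receptor genes had the same value, to the last deposited digit, on 3 or 4 of the 7 arrays: Oprm1 on cocaine arrays 5 and 6 and shock arrays 4 and 6, Oprd1 on cocaine arrays 4 and 7 and shock arrays 5 and 6, Oprk1 on cocaine arrays 4 and 6 and shock arrays 4 and 6, and Oprl1 on cocaine array 5 and shock arrays 4 and 6. None of the 4 precursor genes had a repeated value. Of the genes above the background level, 64% had a value shared by 2 or more arrays. That share counts any repeat on 2 arrays, so it does not tell how usual repeats on 3 or 4 arrays were. Shared values of this kind narrow the SD between arrays, and their part in the narrow intervals of the receptors was not tested.

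**Figure D2:**
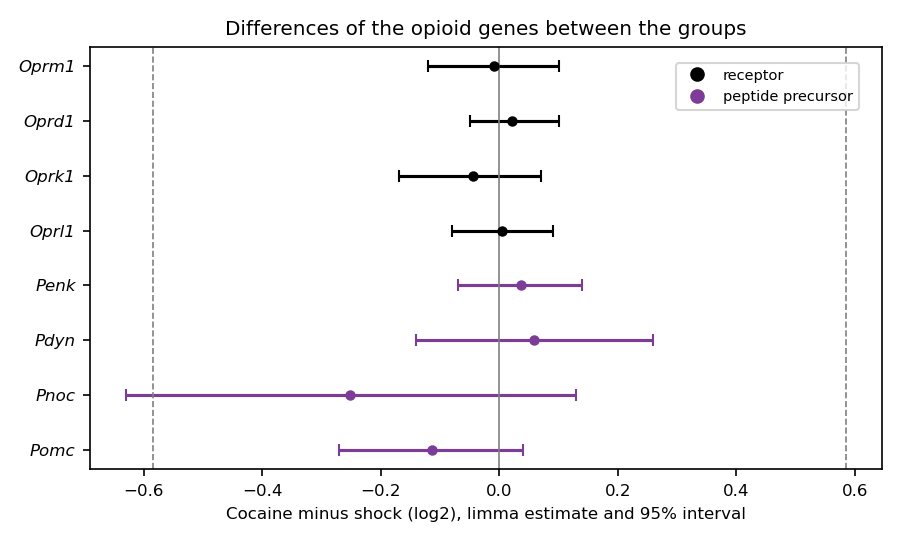
Cocaine minus shock difference of each gene (x axis, log2) with its 95% interval from limma, receptors in black and peptide precursors in purple, and dashed lines at 1.5-fold either way. The interval of Pnoc (-0.63 to 0.13) reaches past the lower dashed line, and the other 7 stay between the lines and include 0.

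Among the precursors, Penk, the source of enkephalins, read 11.89, 11.94, 12.03 and 11.87 on the cocaine arrays and 11.90, 11.89 and 11.90 on the shock arrays. The 3 shock arrays were nearly equal (SD 0.005), while cocaine array 6 was the highest of the 7. The difference was 0.037 (SE 0.045, 95% interval -0.07 to 0.14), a ratio of 1.03 (0.95 to 1.11). Without cocaine array 6 it was 0.0057.

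Pdyn, the source of dynorphins, read 8.0, 8.11, 8.27 and 8.04 on the cocaine arrays and 7.92, 8.11 and 8.11 on the shock arrays. Cocaine array 6 was again the highest and shock array 4 the lowest. The difference was 0.058 (SE 0.083, 95% interval -0.14 to 0.26), a ratio of 1.04 (0.91 to 1.19). It was 0.0014 without cocaine array 6, -0.0064 without shock array 4 and 0.095 without cocaine array 4, so neither the size nor the sign was settled by these arrays.

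Penk and Pdyn were therefore both at their highest on the array that stood apart from the rest, by 0.11 and 0.20 above their means over the 7 arrays. Markers of striatal projection neurons, the cells that use both precursors most widely, were highest on the same array. Their mean deviation over 9 measured genes was 0.16 on cocaine array 6, against -0.02 to 0.07 on the other cocaine arrays and -0.09 to -0.02 on the shock arrays. All 9 were above the background level, and 6 of them had a higher mean in the cocaine group. The dopamine receptor gene Drd1 read 8.48 on cocaine array 6, against 8.20 to 8.33 on the other cocaine arrays and 7.77 to 8.08 on the shock arrays. On shock arrays 5 and 6, where the striatal score was lowest (-0.09 on each), Pdyn lay 0.03 above its mean and Penk 0.03 and 0.02 below. The part of striatal markers in the Penk and Pdyn values was not tested.

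A stretch of the Pdyn promoter is shown because dynorphin transcription is a textbook target of the AP-1 factors Fos and Jun, whose genes are switched on by neuronal activity. The 250 bases before the most upstream start site annotated by RefSeq (GRCm38.p6, chr2:129699939-129700188, minus strand) follow, 5′ to 3′. Capitals mark TGACAAACA, the letters of a noncanonical AP-1 element described for the rat gene, searched for once this window had been read.
Pdyn: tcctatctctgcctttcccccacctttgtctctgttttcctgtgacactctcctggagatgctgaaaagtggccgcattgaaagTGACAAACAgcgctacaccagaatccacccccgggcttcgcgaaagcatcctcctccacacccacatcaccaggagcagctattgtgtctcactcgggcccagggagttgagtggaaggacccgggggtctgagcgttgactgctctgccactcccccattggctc
The element lies 166 to 158 bases before the start site. On either strand, its letters were found in 0.274% of 32851 promoter windows of this length, and in 1 of the 10 windows of the 5 opioid genes that RefSeq start sites covered (Oprm1, Oprd1, Oprl1, Pdyn and Pomc). The cAMP response element TGACGTCA was in 1.55% of all windows, its inner part TGACG (which every full element holds) in 17.8%, and the canonical AP-1 site TGAGTCA in 4.46%, each searched on both strands. None of these 3 was in the 10 windows. A match is a description of the letters and not evidence of binding, and Pdyn itself did not differ between the groups beyond the spread between arrays.

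Pnoc, the source of nociceptin, was the most variable of the 8 genes. It read 5.88, 5.99, 5.54 and 5.92 on the cocaine arrays and 5.79, 6.11 and 6.36 on the shock arrays. Cocaine array 6 was the lowest and shock array 6 the highest, while shock array 4 lay below 3 of the 4 cocaine arrays. The group averages were 5.83 ± 0.20 (SD, n = 4) and 6.09 ± 0.28 (SD, n = 3). The difference was -0.25 (SE 0.16, 95% interval -0.63 to 0.13), a ratio of 0.84 (0.65 to 1.09), with limma's unadjusted p = 0.157 and adjusted p = 0.938. The exact two-sided permutation p over the 35 splits of the arrays was 0.257, where 0.0286 is the smallest possible.

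The size of the Pnoc difference depended on single arrays. It was -0.40 without shock array 4 (limma, unadjusted p = 0.0367, adjusted p = 0.98), -0.15 without cocaine array 6, -0.12 without shock array 6 and -0.16 with limma's array weights. Of the genes above the background level, 97.7% had a smaller pooled SD within groups than Pnoc.

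Markers of inhibitory neurons, the cortical cells known to make nociceptin, had a lower mean in the cocaine group for 13 of 17 genes, with a median of -0.080, and 0 passed limma's unadjusted or adjusted threshold. Their mean deviation ran from -0.08 to 0.04 on the cocaine arrays and from -0.01 to 0.13 on the shock arrays. It was highest on shock array 6, where Pnoc lay 0.41 above its mean, and was -0.01 on cocaine array 6, where Pnoc lay 0.40 below. Of the inhibitory markers, Lhx6, a transcription factor gene of interneurons, was also lowest on cocaine array 6 (7.18, against 7.34 or more on the other arrays). Dlx2 (7.45), Sox6 (6.93) and Gad1 (6.84) were not lowest there, and had their lowest values on cocaine array 4 (7.20, 6.79 and 6.58). The somatostatin precursor gene Sst read 11.98 on shock array 6, its highest value, but had its lowest, 11.46, on cocaine array 7. Gad1, which makes a GABA-synthesising enzyme, averaged 6.83 ± 0.18 (SD, n = 4) against 6.86 ± 0.05 (SD, n = 3). Vascular markers were lower in the cocaine group in 10 of 10 genes (median -0.28) and had their highest score on shock array 6 too (0.40, against -0.36 to 0.13 elsewhere). The part of these cell types in the Pnoc values was not tested.

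**Figure D3:**
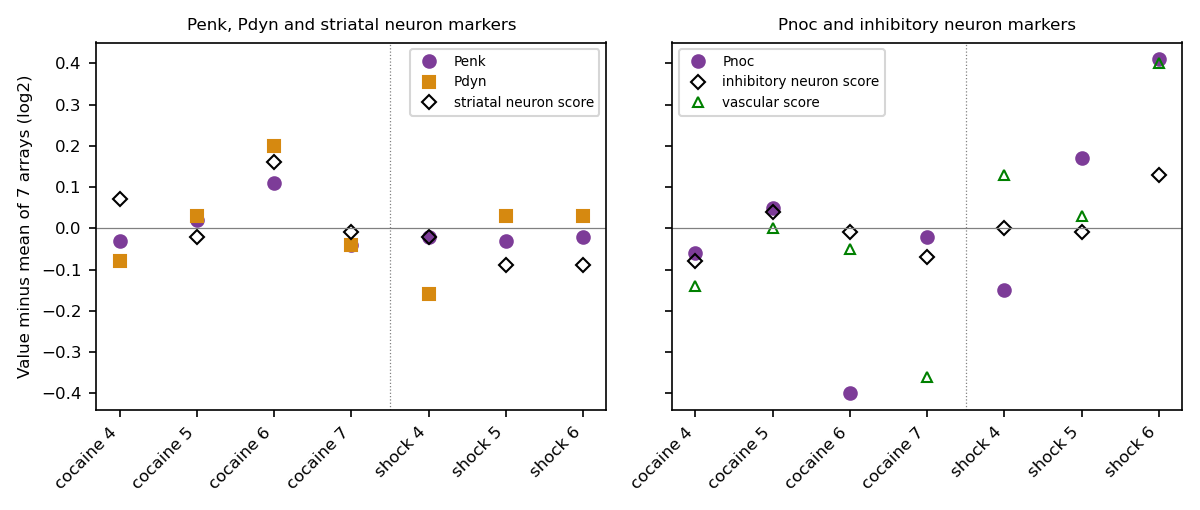
Deviation of each array from the mean of the 7 arrays (y axis, log2) for Penk, Pdyn and the mean of 9 striatal neuron markers (left), and for Pnoc and the means of 17 inhibitory neuron and 10 vascular markers (right). Penk, Pdyn and the striatal markers are all highest on cocaine array 6 (0.11, 0.20 and 0.16), and Pnoc is lowest there (-0.40) and highest on shock array 6 (0.41).

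Pomc, the source of beta-endorphin, read 5.11, 5.09, 5.28 and 5.13 on the cocaine arrays and 5.17, 5.36 and 5.26 on the shock arrays. Every value lay under the background level of 5.45, so Pomc was not above background on any array. In the brain its main source is the hypothalamus, and 7 of the 10 measured hypothalamic or pituitary markers lay under that level too. The difference was -0.11 (SE 0.07, 95% interval -0.27 to 0.04, limma, unadjusted p = 0.13, adjusted p = 0.938). It was -0.15 without cocaine array 6, the highest of the cocaine arrays (limma, unadjusted p = 0.0333, adjusted p = 0.903), and -0.063 without shock array 5.

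Genes whose values ran most like those of a member were found by Pearson's r over the 7 arrays, among 12818 of the 13818 genes above the background level, with chemosensory receptors, small RNAs and predicted or clone-named genes left out. For Pnoc they were Rsph3b (r = 0.979), the ribosomal protein gene Rpl3 (0.978) and Ahnak2 (0.968). For Pdyn they were Pprc1 (0.985), Tufm (0.982) and Jag1 (0.979), and for Penk Pwp2 (0.990), Cul4a (0.985) and Klf4 (0.977). The receptors were most like Traf5 (Oprm1, 0.998), Foxe3 (Oprd1, 0.993), Itih5 (Oprk1, 0.986) and Wfdc13 (Oprl1, 0.996). These coefficients describe 7 points that share their arrays and were the highest among all candidates. Those of the receptors, whose values repeat on 3 or 4 arrays, rest on the few arrays that depart from the repeated value. They also ignore scale: Foxe3 spanned 0.73 over the arrays and Oprd1 0.07. No opioid gene was among the 3 nearest genes of another.

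The remaining genes of opioid signalling were grouped into 6 lists by role, with 69 measured genes. Across them 0 passed limma's adjusted threshold. At an unadjusted p under 0.05 there were 6 (8.7%, against 3.1% of all genes), 3 higher (1.53% of all genes) and 3 lower (1.57% of all genes) in the cocaine group. The groups did not overlap for 4 of the 69 (5.8%, against 2.37% of all genes). The median difference over the 69 was -0.003. The count of 6 was 0 without shock array 6 (2.73% of all genes) and 3 without cocaine array 6 (2.64%). It was 2 without shock array 5 (3.55%) or cocaine array 7 (2.39%), and 5 without cocaine array 4 (3.01%). Without cocaine array 5 (3.49%) or shock array 4 (3.03%) it stayed at 6.

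Of 11 genes that process peptide precursors, 5 had a higher and 6 a lower mean in the cocaine group, with a median of -0.003 and 0 at an unadjusted p under 0.05. Differences were 0.071 for Pcsk1, the prohormone convertase that makes the first cuts in precursors such as those of Pomc and Penk, 0.049 for its inhibitor Pcsk1n, 0.035 for Scg5, the chaperone of another convertase, and -0.073 for the protease Ctsl. Single arrays carried much of them: with 1 array left out, Pcsk1 ran from 0.0041 (without shock array 4) to 0.11, Pcsk1n from 0.026 to 0.076, Scg5 from 0.016 to 0.049 and Ctsl from -0.13 to -0.0013 (without shock array 6). Of 9 peptide-degrading enzymes 7 had a lower mean, with a median of -0.057. Ace, the angiotensin-converting enzyme, which also cleaves enkephalins, averaged 7.53 ± 0.06 (SD, n = 4) against 7.65 ± 0.07 (SD, n = 3), with no overlap (difference -0.12, limma, unadjusted p = 0.046, adjusted p = 0.938). Ece1 differed by -0.096 (-0.13 to -0.060 with single arrays left out), the aminopeptidase gene Enpep by -0.31 (-0.44 to -0.15) and Mme, which codes for the enkephalin-degrading enzyme neprilysin, by 0.14 (0.036 to 0.27). Ace and Enpep are also used by cells of brain vessels, whose markers were lower in the cocaine group as given above, and the part of vessels in these values was not tested.

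Among 11 G protein subunits, 6 had a higher and 5 a lower mean (median 0.008). Gnai2, an inhibitory alpha subunit to which opioid receptors couple, averaged 9.90 ± 0.05 against 10.03 ± 0.05, and Gng7, a gamma subunit abundant in striatum, 10.52 ± 0.05 against 10.41 ± 0.03 (SD, n = 4 and n = 3). Both had groups that did not overlap (differences -0.13 and 0.11, limma, unadjusted p = 0.022 and 0.0341, adjusted p = 0.938 for both). Gnb5 differed by 0.067 (0.043 to 0.093 with single arrays left out) and Gnai3 by -0.100 (-0.17 to -0.039). Of 14 effectors 9 had a higher mean, with a median of 0.006 and 0 at an unadjusted p under 0.05. Among them, the adenylyl cyclase gene Adcy5 differed by 0.075 (0.039 to 0.12 with single arrays left out), the phospholipase genes Plcb1 by 0.027 (0.010 to 0.050) and Plcb3 by -0.080, and the potassium channel gene Kcnj3 by -0.026, which turned to 0.0070 when its probe sets were averaged.

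The 15 genes of receptor kinases, arrestins, protein kinase C and RGS proteins, which shorten or end receptor signalling, had a median of 0.008, with 8 higher and 7 lower means. Rgs4, which speeds the shut-off of inhibitory G proteins, averaged 10.90 ± 0.04 against 10.78 ± 0.03 with no overlap (SD, n = 4 and n = 3; difference 0.11, limma, unadjusted p = 0.0178, adjusted p = 0.938). Rgs9, a striatum-enriched relative, differed by 0.12 (0.076 without cocaine array 6), Rgs19 by -0.089 and the arrestin gene Arrb1 by -0.075 (-0.026 without cocaine array 6). Of 9 other opioid-binding or receptor-associated proteins, 3 had a higher and 6 a lower mean (median -0.027). Gpr139, an orphan receptor known to oppose mu receptor signalling, averaged 6.69 ± 0.08 against 6.43 ± 0.20, and Rtp4, a chaperone of mu and delta receptor pairs, 5.65 ± 0.02 against 5.80 ± 0.12 (SD, n = 4 and n = 3). Their differences of 0.27 and -0.14 had limma's unadjusted p = 0.0314 and 0.0481 (adjusted p = 0.938 for both), and the groups overlapped. Ackr3, a scavenger receptor that binds opioid peptides, differed by -0.17, and Mrgprx1, under the background level, by -0.048 (-0.016 without cocaine array 5). Of the 24 genes named from these 6 lists, leaving out a single array turned 16 or moved them by over 1.5 times. With single arrays left out, the difference of Gpr139 was 0.17 to 0.37, that of Rtp4 -0.21 to -0.10, that of Ace -0.14 to -0.081 and that of Rgs4 0.10 to 0.13.

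**Figure D4:**
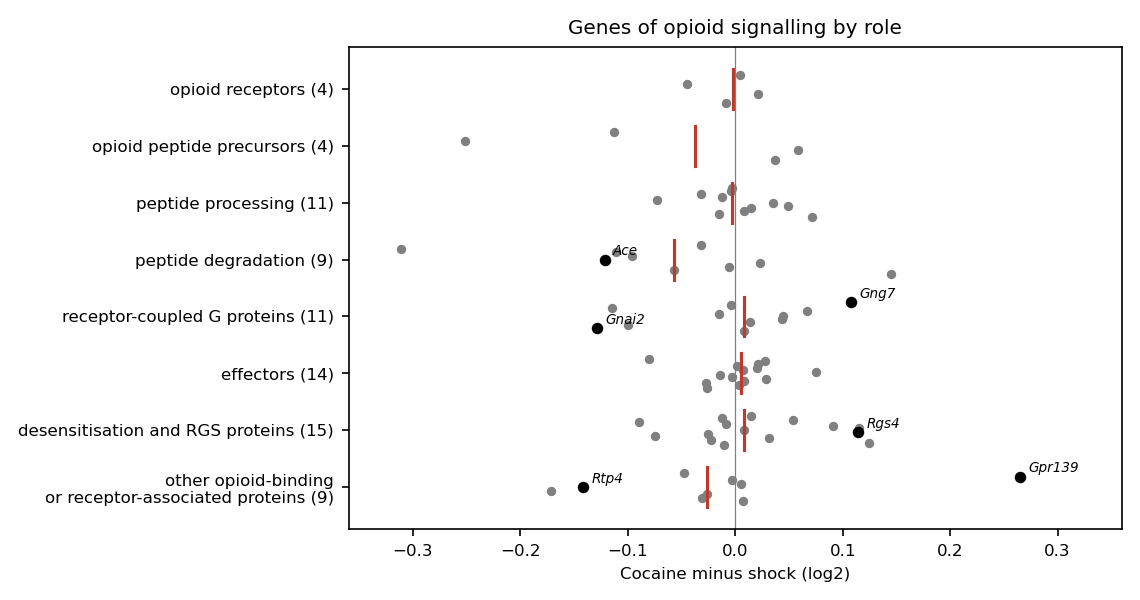
Cocaine minus shock difference (x axis, log2) of the opioid receptors and precursors and of the genes of 6 lists of opioid signalling (rows, number of measured genes in brackets), with the median of each row as a red bar. The 6 genes in black have an unadjusted p under 0.05 by limma, 0 genes pass the adjustment, and the receptor medians and most others lie within 0.03 of 0.

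The 28 measured precursors of other neuropeptides had 14 higher and 14 lower means (median 0.001), and 0 passed limma's adjusted threshold. At an unadjusted p under 0.05 there was 1, Pmch (difference 0.17), under the background level. The tachykinin precursor gene Tac1, used by the same striatal neurons as Pdyn, differed by 0.14, Sst by -0.19 (-0.25 to -0.12 with single arrays left out) and Hcrt, also under the background level, by -0.073 (-0.031 without shock array 4).

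Markers of other cells the pull-down could hold were measured with the same arrays, and 0 of them passed limma's adjusted threshold. At an unadjusted p under 0.05 there were 3 of 9 striatal, 3 of 10 vascular, 1 of 8 oligodendrocyte lineage and 1 of 10 hypothalamic or pituitary markers, and 0 of the excitatory, inhibitory, astrocyte and microglia markers, against 3.1% of all genes. Striatal markers with the smallest unadjusted p were Drd1 (difference 0.33), Rarb (0.23) and Pde10a (0.17), whose groups did not overlap, and Tac1 (0.14). Vascular markers were Slco1a4 (-0.48), Flt1 (-0.30), Cldn5 (-0.29) and Kdr (-0.19, or -0.094 without shock array 6). Excitatory markers had a lower mean in 6 of 9 (median -0.038), with 0.081 for Slc17a7, -0.11 for Rorb, -0.055 for Emx1 and 0.15 for Neurod6. The inhibitory markers were Sst, Lhx6 (-0.12, or -0.073 without cocaine array 6), Dlx2 and Sox6 (each -0.12) and Gad1 (-0.035). Astrocyte markers, lower in 8 of 8, were Sox9 and Mlc1 (each -0.20), Aqp4 (-0.18), Gja1 (-0.23) and Gfap (-0.16). With single arrays left out, Slc17a7 ran from 0.047 to 0.10, Rorb from -0.18 to -0.050, Dlx2 from -0.15 to -0.065, Sox6 from -0.16 to -0.048 and Gja1 from -0.36 to -0.13.

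The markers of the oligodendrocyte lineage were Olig2 (-0.16), Cldn11 (0.14), Mobp (0.15) and Mbp (0.057). With single arrays left out, Cldn11 ran from 0.074 to 0.24, Mobp from 0.0074 to 0.23 and Mbp from 0.027 to 0.10. Those of microglia were Cx3cr1 (-0.18, or -0.089 without cocaine array 6 and -0.070 without shock array 4), Tmem119 (-0.095, from -0.16 to -0.020), C1qb (-0.13, or -0.24 without cocaine array 6) and C1qa (0.075, from 0.021 to 0.11). Those of hypothalamus or pituitary were Pmch, Tshb (0.12, or 0.076 without cocaine array 6), Hcrt and Oxt (0.13, from 0.054 to 0.19).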

How the data were processed

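RNA of GFP-tagged ribosomes was hybridised to 7 one-colour Affymetrix arrays, per the labels. The deposited values are log2 expression values, a scale read from their range (1.12 to 13.44). Transcriptome Analysis Console is the tool that the submitters' processing notes list. How values were summarised, normalised and filtered is not given in the sources used here. Array medians ran from 5.44 to 5.47, so each difference is relative to the rest of the array. Of 41345 probe sets 23521 had 1 symbol in the platform annotation, 1814 several and 16010 were not listed there. The probe set with the highest mean was kept per gene (22180 genes). The test was limma's moderated linear model (limma 3.58.1, R 4.3.3, two-sided, no covariate) with Benjamini-Hochberg adjustment. In simulated data with these 22180 genes' means and spreads, 91 of 100 genes changed 2-fold and 76 of 100 changed 1.5-fold were recovered, with 5 false calls. Both sets were changed in the same data, which loosens the adjusted threshold, and the noise was independent, with no array standing apart. These shares therefore check the fit and do not give the power for a single gene on the real arrays. The genes and lists were chosen with earlier results of these data known. The rule named the 8 opioid genes, up to 4 genes of smallest unadjusted p per list (Slc17a7, Gad1, Sst, Drd1 and Gfap always) and the 3 most alike per opioid gene above background. Alternatives were single arrays left out, quantile normalization, median centring, no dim genes, mean of probe sets, other moderation, array weights, a replicate block and exact permutation.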

Additional observations from a re-analysis of the deposited data

Results flagged for a closer look

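In 8 named genes, 1 of the 4 cocaine arrays lay far from the other 3, with a gap to the nearest array that passed, as a share of the range, Dixon's 95% limit for 4 samples. None of the 8 opioid genes was among them. Cocaine array 6 was lowest for Arrb1 (gap of 1 times the range, 9.96 against 10.15 on each other cocaine array), Lhx6 (0.899) and the microglial gene Cx3cr1 (0.911). Cocaine array 5 was highest for Ece1 (0.932) and lowest for Mrgprx1 (0.839) and Hcrt (1). Cocaine array 4 was lowest for the interneuron genes Dlx2 (0.910) and Sox6 (0.852). Of 66 genes tested, chance would pass about 5% of independent measures without shared values, and shared values favour a large gap.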

How the results depend on the processing

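In all 16 fits 0 genes passed limma's adjusted p of 0.05. At an unadjusted p under 0.05 there were 419 (no moderation) to 915 (replicate block) genes, against 688 of 22180 in the fit reported. Leaving out dim genes gave 453, but of only 13818 genes fitted, so that count does not compare with the 688. Of 127 alternatives run over the 8 opioid genes 7 turned the direction, and 0 passed the adjustment (limma, smallest adjusted p = 0.871). Many could not turn it: other moderation, exact permutation, leaving out dim genes and averaging probe sets keep the difference of each opioid gene. The replicate block leaves out cocaine array 7 and repeats the differences found without that array. The share that turned is therefore no measure of how stable the directions were. Oprm1 ran from -0.040 to 0.016 with single arrays left out, and was 0.0066 with quantile normalization, 0.0026 with median centring and 0.016 with the replicate block. Oprl1 ran from -0.017 to 0.022 and Pdyn from -0.0064 to 0.095 with single arrays left out. Penk (0.0057 to 0.058), Oprd1 (0.0011 to 0.031), Oprk1 (-0.068 to -0.0094), Pnoc (-0.40 to -0.12) and Pomc (-0.16 to -0.063) kept their direction. Pomc has no value with dim genes left out. The median of the kinase, arrestin and RGS list ran from -0.0055 to 0.038, that of the other receptor-associated proteins from -0.059 to 0.018, of peptide processing from -0.015 to 0.022, of effectors from -0.026 to 0.023, of other neuropeptides from -0.026 to 0.032 and of the 4 receptors from -0.028 to 0.019. In the same fits that of the G protein subunits ran from 0.0052 to 0.018 and that of the peptide-degrading enzymes from -0.10 to -0.024. The median of the opioid precursors (-0.038) ran from -0.083 to -0.014 with single arrays left out, and was 0.037 with dim genes, and so Pomc, left out. Of 58 other named genes, 37 turned or moved by over 1.5 times with 1 array left out. Kcnj3 ran from -0.051 to 0.014 and was 0.0070 with the mean of its probe sets, Gad1 from -0.090 to 0.048, and the excitatory markers Emx1 and Neurod6 from -0.10 to 0.0017 and from -0.011 to 0.24. The cause of these turns was not tested. Same-numbered arrays of the groups had deviations from the group mean that correlated at 0.13, 0.06 and 0.16, against -0.10 to -0.02 for unequal numbers. Each of arrays 4, 5 and 6 was thus most like its own number in the other group, but not every pair passed 0.1. The deviations of the shock arrays cancel out for each gene, so positive values for equal numbers draw those for unequal numbers down. The contrast is therefore no test of pairing. The labels do not say that a number is shared. With the replicate block, fitted on arrays 4, 5 and 6 of each group, Pnoc differed by -0.28, Penk by 0.058 and Pdyn by 0.081. These equal the differences without cocaine array 7 and with no block, so they show the loss of that array and not an effect of pairing. The means of Oprm1 and Pnoc lay close to the background level and that of Pomc under it.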
